A study of Mus musculus with 2 samples.

Results

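The subject is a set of 10 genes out of the 32285 in the deposited tables, namely Fos, Fosb, Fosl1, Fosl2, Jun, Junb, Jund, Atf3, Egr1 and Zfp36, and each matched 1 row by its symbol. The set was chosen by the ratios of TP over control that these libraries had shown, so the ratios of TP over control given here are descriptions and support nothing by themselves. The cells came from the back skin of male C3H/HeN mice, 7 weeks old at the start and 9 weeks old at harvest. Control mice received the vehicle. TP mice received testosterone propionate (TP) at 0.5 mg per day under the skin, which models androgenetic alopecia (AGA), a hair loss driven by androgens. Each library is a pool of 15 mice, and there is 1 library per condition. The skin was minced, digested with collagenase D and depleted of red cells. The treatment, the pool, the dissociation and the library cannot be told apart, and no test of a difference was possible. Mice that were given an antibody beside TP are not analysed here.

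AP-1 is a family of transcription factors that act as pairs, most often a FOS protein with a JUN protein, or a JUN protein with a relative such as ATF3. Most genes of the set are immediate-early genes, whose transcripts appear quickly after a growth factor, stress or injury signal, through the ERK, JNK and p38 kinases and the factor SRF, without new protein synthesis. In skin, AP-1 is known for roles in keratinocyte differentiation, wound repair and fibroblast activation, and these transcripts are also known to be induced while a tissue is being digested into single cells.

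Promoters are shown because short elements near the start, bound by CREB, ATF, EGR and SRF proteins, are what this class of genes is known for. RefSeq promoter entries were matched for 8 of the 10 genes, all but Fosl1 and Egr1. Fos, Fosb, Jun, Junb and Atf3 are printed as genes with higher levels in TP in most cell classes, and Fosl2 as the gene with nearly equal levels. Each line holds the 250 bases before the start (GRCm38.p6), with capitals at every match, on either strand, to the cAMP response element core TGACG, the variant TGACATCA, the AP-1 motif TGANTCA, the EGR motif GCGNGGGCG, the TATA box TATAAA or the CArG box.
Fos promoter, chr12:85473640-85473889, plus strand: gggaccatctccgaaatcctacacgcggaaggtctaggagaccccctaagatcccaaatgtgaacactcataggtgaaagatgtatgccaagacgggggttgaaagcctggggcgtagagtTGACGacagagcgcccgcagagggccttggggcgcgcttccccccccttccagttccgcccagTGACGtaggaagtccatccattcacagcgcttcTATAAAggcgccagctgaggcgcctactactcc
Fosb promoter, chr7:19310046-19310295, minus strand: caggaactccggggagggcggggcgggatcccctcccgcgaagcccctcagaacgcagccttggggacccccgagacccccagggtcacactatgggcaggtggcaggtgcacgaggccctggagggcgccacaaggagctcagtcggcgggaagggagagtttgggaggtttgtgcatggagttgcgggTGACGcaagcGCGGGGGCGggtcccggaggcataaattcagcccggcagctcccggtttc
Fosl2 promoter, chr5:32136222-32136471, plus strand: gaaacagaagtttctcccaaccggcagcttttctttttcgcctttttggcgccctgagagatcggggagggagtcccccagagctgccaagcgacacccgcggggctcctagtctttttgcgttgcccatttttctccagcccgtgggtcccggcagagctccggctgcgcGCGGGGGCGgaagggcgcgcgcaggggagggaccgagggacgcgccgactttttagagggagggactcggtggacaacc
Jun promoter, chr4:95052223-95052472, minus strand: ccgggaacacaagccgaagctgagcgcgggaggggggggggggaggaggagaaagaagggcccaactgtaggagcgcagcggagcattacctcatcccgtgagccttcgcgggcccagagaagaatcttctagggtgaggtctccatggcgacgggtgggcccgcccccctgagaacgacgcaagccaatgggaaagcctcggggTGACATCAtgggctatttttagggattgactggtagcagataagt
Junb promoter, chr8:84978749-84978998, minus strand: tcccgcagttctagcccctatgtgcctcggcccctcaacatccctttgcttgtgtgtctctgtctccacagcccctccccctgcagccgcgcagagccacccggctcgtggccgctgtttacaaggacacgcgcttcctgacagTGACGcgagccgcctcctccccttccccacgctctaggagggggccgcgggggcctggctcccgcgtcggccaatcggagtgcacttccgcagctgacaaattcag
Atf3 promoter, chr1:191183334-191183583, minus strand: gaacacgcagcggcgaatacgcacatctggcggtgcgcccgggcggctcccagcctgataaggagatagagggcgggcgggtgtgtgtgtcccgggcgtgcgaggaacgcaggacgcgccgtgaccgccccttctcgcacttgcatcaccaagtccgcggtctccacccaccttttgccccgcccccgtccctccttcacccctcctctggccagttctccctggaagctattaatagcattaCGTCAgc
TGACG, the core of the cAMP response element, was found in 4 of the 8 promoters and in 17.8% of all 32851 promoters cut to the same length. It lay 129 and 66 bases before the start in Fos, 60 in Fosb, 106 in Junb and 7 in Atf3. Jun held TGACATCA, a variant of it known from this promoter, 45 bases before its start (2.93% of all promoters). The windows of Fosl2, Jund and Zfp36 held neither, and Jund and Zfp36, unlike Fosl2, had higher levels in TP. Fosl2 held the EGR motif GCGNGGGCG at 79 bases, as did Fosb at 50 and Zfp36 at 105 (4.7% of all promoters). TATAAA was found in Fos at 33 bases (12.4%) and a CArG box, the element of SRF, in Zfp36 at 58 bases (1.47%). The AP-1 motif TGANTCA was found in 0 of the 8 windows (6.75% of all promoters). These matches describe letters and not bound sites.

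In the GRCm38.p6 annotation the genes lie with Fos at chr12:85473890-85477274, Fosb at chr7:19302696-19310118, Fosl1 at chr19:5447698-5455938, Fosl2 at chr5:32136472-32157840, Jun at chr4:95049036-95052222, Junb at chr8:84976909-84978748, Jund at chr8:70697739-70700616, Atf3 at chr1:191170296-191183333, Egr1 at chr18:34861207-34864956, Zfp36 at chr7:28376784-28379228. The start used for the Fosb promoter lies inside these outer bounds of the gene.

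Of 45709 control and 25931 TP barcodes, 39076 and 18542 were kept as cells, with a median of 2069 and 4990 UMIs, a UMI being 1 counted molecule. The TP library was thus the deeper one, and 22.6% of its barcodes were over 10% mitochondrial UMIs against 7.58% in control. The libraries shared 303 barcodes, 184 of them among kept cells. Clustering and marker genes gave 14 named classes with at least 50 cells in each library. The endothelial-like class was led by the lymphatic genes Ccl21a, Reln and Mmrn1. Levels are UMIs per 1000000 UMIs of the same cells (CPM), and fewer cells with a transcript and fewer copies per cell cannot be told apart in them. Intervals are at 95% and cover counting error only.

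Over all kept cells, 8 of 10 genes stood at least 2-fold higher in TP, beside 8.36% of the 17566 genes with at least 50 UMIs, and 0 were 2-fold lower, beside 11% of them. The median log2 ratio of the set was 1.62, against -0.24 for those 17566 genes. In the FOS family, which binds DNA only with a partner such as JUN, Fos stood at 656 CPM in control against 2027 in TP, a ratio of 3.09 (3.06 to 3.12). Fosb stood at 144 CPM in control against 452 in TP, a ratio of 3.14 (3.08 to 3.19). Fosl1, which encodes FRA-1, had 427 UMIs in control against 7442 in TP, and its level went with a ratio of 13.8 (12.5 to 15.2). Fosl2, which encodes FRA-2, stood at 42.8 CPM in control against 44.4 in TP, a ratio of 1.04 (0.999 to 1.08). Within this family the widest and the narrowest gap of the whole set thus stood side by side.

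In the JUN family, whose proteins pair with each other or with FOS proteins, Jun stood at 822 CPM in control against 1453 in TP, a ratio of 1.77 (1.75 to 1.78). Junb stood at 176 CPM in control against 535 in TP, a ratio of 3.05 (2.998 to 3.10). Jund, the member known for steady expression in resting cells, stood at 324 CPM in control against 718 in TP, a ratio of 2.22 (2.19 to 2.24). All 3 were higher in TP, Jun by less than 2-fold. Atf3, a stress-induced partner, stood at 201 CPM in control against 821 in TP, a ratio of 4.08 (4.03 to 4.14). Egr1, a zinc finger factor induced through SRF, stood at 297 CPM in control against 886 in TP, a ratio of 2.98 (2.95 to 3.02). Zfp36 encodes tristetraprolin, which binds AU-rich transcripts and speeds their decay, and it stood at 85.2 CPM in control against 325 in TP, a ratio of 3.81 (3.72 to 3.89). Of the summed UMIs of the set, the JUN family made up 48.0% in control and 37.0% in TP, and the FOS family 30.8% and 35.2%.

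**Figure D1:**
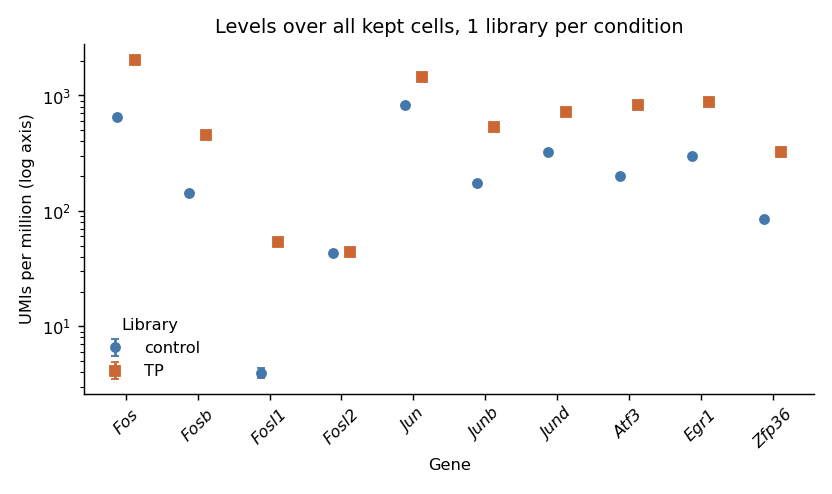
Levels of the 10 genes in CPM (log axis) over all kept cells of the control and TP libraries, with 95% counting intervals that are mostly smaller than the symbols. Fosl1 shows the widest gap (3.93 and 54.2) and Fosl2 the narrowest (42.8 and 44.4).

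The libraries also differed in the cells they held. IFE suprabasal-like cells, the differentiating layers of the interfollicular epidermis (IFE), were 5.26% of the control and 17.6% of the TP cells, and inner root sheath-like cells 19.3% of the control and 6.37% of the TP cells. With every cluster given its control share of UMIs in both libraries, the ratio was 2.5997 for Fos, 2.91 for Egr1 and 3.24 for Atf3. With the TP shares in both it was 1.78, 2.03 and 2.504, and 5 of the 10 genes were then at least 2-fold higher. The share of all genes under this weighting is not given here, so that count is not read on its own. Averaged over both weightings, the part of the log2 ratio found within clusters ran from 67.8% for Fos to 83.7% for Fosl1 among the 9 genes other than Fosl2. By this average, most of each of these 9 gaps lay inside clusters, and the rest was the part assigned to cluster shares. With the TP shares alone, the part inside clusters was 0.829 of the log2 ratio of 1.63 for Fos.

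Among 132 pairs of a gene and a named class with at least 20 UMIs, 72 were higher in TP by 2-fold or more and 1 was 2-fold lower. Over all genes of a class, the share at least 2-fold higher ran from 1.56% in IFE basal-like to 14.5% in Schwann-like cells. The share 2-fold lower ran from 2.91% in smooth muscle-like to 10.8% in melanocyte-like cells. Of the 72, 9 had fewer than 20 UMIs in control and reached that minimum through TP, 5 of them Fosl1 and 4 in Schwann-like cells. Among the 118 pairs with at least 20 UMIs in control alone, 63 were at least 2-fold higher. Counts of the set by class are over its genes with at least 20 UMIs there, and the percentages given beside them are over all genes with at least 50. A count of 0 was set to a floor of 3 UMIs per library for these calls. Summed over the set, the ratio ran from 1.06 in smooth muscle-like and 1.29 in IFE suprabasal-like cells to 5.83 in DPC-like cells, the dermal papilla cells (DPC) at the base of the follicle. The summed level in control was 1972 CPM in DPC-like and 1657 in inner root sheath-like cells, against 7235 in IFE basal-like cells. Melanocyte-like cells, at 1794 CPM in control, had a summed ratio of 1.81.

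In IFE basal-like cells, the progenitor layer (2954 control and 3105 TP cells), 3 of 10 genes stood at least 2-fold higher in TP, beside 1.56% of all genes counted there. These 3 were Fosl1 at 28.5 and 212 CPM, Atf3 at 972 and 2254 and Zfp36 at 212 and 457. In cells of 1000 to 2000 and of 2000 to 4000 UMIs, which hold most control cells of the class, the ratios were under 2-fold for Atf3 (1.24 and 1.59) and Zfp36 (1.26 and 1.56), and for Fosl1 they were 3.89 and 6.05. Fos stood at 1827 CPM in control against 2973 in TP, a ratio of 1.63 (1.60 to 1.66), and Jun at 1862 and 2222, a ratio of 1.19 (1.17 to 1.22). In cells of 1000 to 2000 UMIs the Fos ratio was 0.768, on the other side of equality. The clusters within the class were not alike. In cluster 15, led by Krt14, Krt5 and Krt15, the ratio was 1.79 for Fos, 1.495 for Jun and 2.16 for Egr1. In the dividing cells of cluster 18, led by Anln and Diaph3, it was 1.43, 1.03 and 1.86. In cluster 4, led by Cdh13, Sox6 and Il20ra, it was 1.196, 0.717 and 1.204, with Jun at 1765 CPM in control against 1266 in TP. Jun was thus on opposite sides of equality in parts of the same layer. Its ratio in the class also turned with depth, from 0.543 in cells of 1000 to 2000 UMIs and 0.774 at 2000 to 4000 to 1.247 at 4000 to 8000, and the part of depth in the contrast between clusters was not tested.

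IFE suprabasal-like cells (2055 control and 3257 TP cells) held more of the Fos UMIs than any other class, 36.9% in control and 34.2% in TP. Their Fos level was above that of all kept cells in control (1798 against 656 CPM) and near it in TP (2041 against 2027). In TP that share was thus near their share of all UMIs. Of the set, 1 of 10 genes was at least 2-fold higher, beside 2.33% of all genes, and it was Fosl1 at 7.25 and 56.6 CPM. Fos stood at 1798 CPM in control against 2041 in TP, a ratio of 1.13 (1.12 to 1.15), Egr1 at 601 and 746 and Atf3 at 378 and 744, a ratio of 1.97 (1.91 to 2.03). Cluster 6, led by Krt16 and Krt6b, keratins of the injured or hyperproliferative epidermis, had ratios of 1.28 for Fos and 2.46 for Atf3. Cluster 11, led by the cornification genes Hrnr and Flg, had 1.03 and 1.53.

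Higher up the follicle, the summed ratio of the set was 1.59 in upper hair follicle-like and 1.98 in outer bulge-like cells, beside 1.63 in IFE basal-like cells. In upper hair follicle-like cells, the funnel region with Krt79 and Cst6 (1095 control and 1351 TP cells), 3 of 10 genes stood at least 2-fold higher, beside 1.74% of all genes, namely Atf3 at 351 and 922 CPM, Zfp36 at 132 and 279 and Fosl1 with 9 UMIs in control against 315 in TP. Fos had a ratio of 1.77 there. In outer bulge-like cells, the stem cell layer with Lgr5 and Sox9 (593 control and 1589 TP cells), it was 6 of 10, beside 3.82%, with Fos at 747 and 1658 CPM, a ratio of 2.22 (2.09 to 2.36), and Fosl2 at 43.5 and 32.5, the lower level being the one in TP. The 6 include Fosl1, which had 6 UMIs in control against 133 in TP. Its level was 14.3% in control and 7.11% in TP of the IFE basal-like one, and the part of epidermal RNA in it was not tested. In both of these classes Fosl1 reached 20 UMIs only through TP.

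Inner root sheath-like cells, which mould the growing hair and carry Krt71 and Krt25, had low levels in control and higher ones in TP (7543 control and 1181 TP cells). Fos stood at 235 CPM in control against 1541 in TP, a ratio of 6.57 (6.36 to 6.79). Fosb stood at 46.0 and 370.0 CPM, a ratio of 8.04 (7.48 to 8.65), and Atf3 at 85.4 and 630.5, a ratio of 7.39 (7.00 to 7.79). Jun differed less, at 705 and 1309 CPM, a ratio of 1.86 (1.81 to 1.90). In all, 8 of 10 genes stood at least 2-fold higher, beside 5.12% of all genes, and the rest were Jun and Fosl2. The JUN family made up 63.4% of the UMIs of the set here in control and 38.9% in TP. The ratio for Fos was 7.43 in cluster 1, led by Krt73 and Cdh6, 5.57 in cluster 2, led by Sytl2 and Krt71, and 4.396 in cluster 21, led by Prr9 and Crym. Krt10, an epidermal keratin, stood in this class at 7.26% in control and 26.2% in TP of its suprabasal level, and Krt14 at 3.01% in control and 2.93% in TP of its basal level. Atf3 stood there at 8.78% in control and 28.0% in TP of its basal level, above the Krt14 values. Its suprabasal level was 378 CPM in control and 744 in TP. The Krt10 values are shares of a suprabasal level, so the Atf3 shares cannot be set against them. The part of epidermal RNA in Atf3 was not tested, and its ratio is not read as a difference in expression. Fosl1, at 1.95% in control and 9.03% in TP of its basal level, had 11 and 204 UMIs and reached 20 in control and TP together only through TP. Both genes are among the 8. The part of RNA from other cells in these gaps was not tested. In cortex-like cells, which build the hair shaft (442 control and 100 TP cells), 8 of 10 were at least 2-fold higher, beside 2.62%, with Fos at 157 and 1037 CPM and Egr1 at 101 and 507. The 8 include Fosl1, which had 3 UMIs in control against 41 in TP and reached 20 UMIs only through TP. They also include Atf3, at 4.85% in control and 10.8% in TP of its basal level, above the Krt14 values there. Its level was 47.2 and 244 CPM, beside 378 and 744 in IFE suprabasal-like cells. Krt1 stood there at 5.80% in control and 16.2% in TP of its suprabasal level and Krt10 at 5.40% in control and 14.9% in TP, and Krt14 at 2.64% in control and 2.12% in TP of its basal level, and the part of such RNA in the gaps of cortex-like cells was not tested.

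DPC-like cells, which carry Corin, Vcan and Rspo3 and signal to the hair matrix, showed wide gaps for most of the set (3498 control and 1280 TP cells). Fos stood at 551 CPM in control against 3843 in TP, a ratio of 6.98 (6.79 to 7.18), and Fosb at 108 and 846, a ratio of 7.81 (7.33 to 8.32). In the JUN family, Jun stood at 509 and 2309 CPM, a ratio of 4.53 (4.398 to 4.68), Junb at 133 and 995, a ratio of 7.47 (7.06 to 7.92), and Jund at 281 and 1128. Egr1 stood at 309 and 1718 CPM, a ratio of 5.57 (5.36 to 5.79). Zfp36 stood at 31.4 and 552 CPM, a ratio of 17.6 (15.7 to 19.7), which placed it at rank 5 of the 12658 genes counted in these cells. Counting all, 9 of 10 genes stood at least 2-fold higher, beside 3.84% of all genes, and the remaining one was Fosl2 at 24.7 and 39.9 CPM. Of the 9, Atf3 and Fosl1 (1 and 20 UMIs) lay at the level of free RNA in these cells, as the keratin values further on show, and 7 were left without them. The class joins cluster 10, with Adgrb3 and Vcan among its leading genes (1410 control and 1011 TP cells), and cluster 12, led by Ndnf and Tmem132c (2088 and 269), so its makeup differed between the libraries. Within cluster 10 the ratio was 7.95 for Fos, 7.05 for Jun and 19.0 for Zfp36, and within cluster 12 it was 6.89, 3.17 and 17.4.

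Dermal sheath cup-like and DF-like cells were also higher in TP for most of the set. In dermal sheath cup-like cells, the contractile sheath around the lower follicle (307 control and 127 TP cells), Fos stood at 844 CPM in control against 3567 in TP, Egr1 at 416 and 1628 and Zfp36 at 105 and 679. There 8 of 9 genes stood at least 2-fold higher, beside 4.29% of all genes. Col1a1, a collagen gene of fibroblasts, stood in the same cells at 2178 CPM in control against 7446 in TP, a ratio of 3.42 (3.25 to 3.60), and its part in these gaps was not tested. In DF-like cells, the dermal fibroblasts (DF) with Col1a1 and Lum (80 control and 533 TP cells), it was 8 of 10, beside 6.53%, and Fosl1 (0 UMIs in control against 53 in TP) is outside the count, with an interval of its ratio that begins at 0.905. Fos stood at 497 CPM in control against 2452 in TP in these fibroblasts, a ratio of 4.94 (4.21 to 5.83), and Fosl2 at 52.0 and 44.7. The few control fibroblasts make these values less precise, as for Junb, which had 22 UMIs in control against 2419 in TP and a ratio of 7.17 (4.73 to 11.5).

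**Figure D2:**
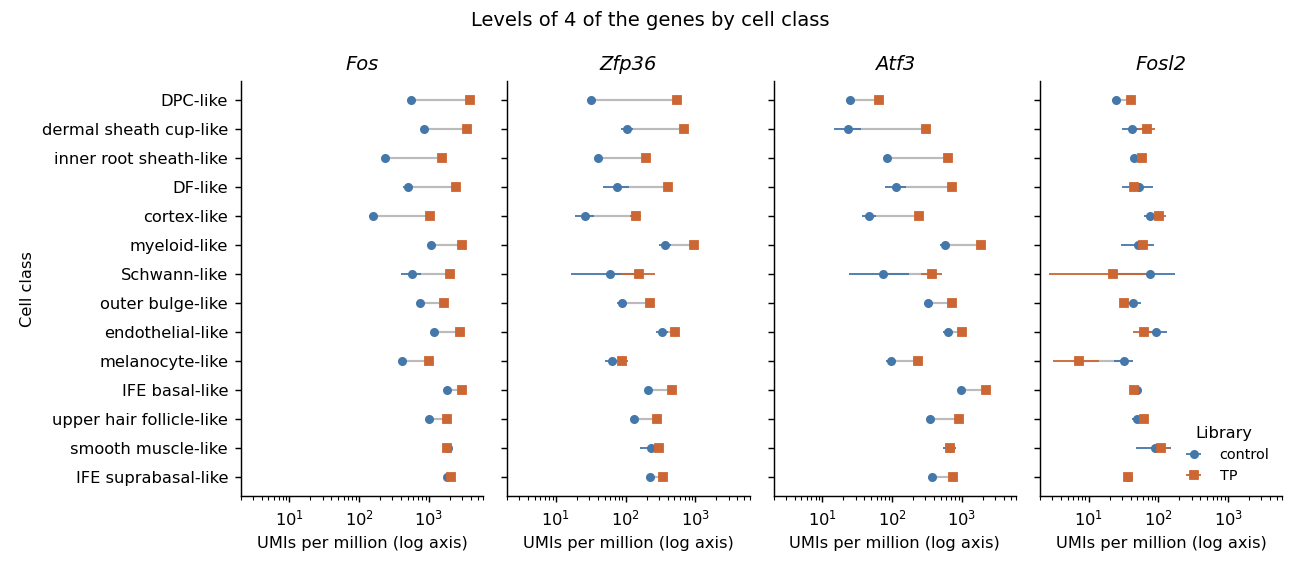
Levels of Fos, Zfp36, Atf3 and Fosl2 in CPM (log axis) in 14 cell classes of the control and TP libraries, with 95% counting intervals. Fos lies far apart in DPC-like cells (551 and 3843) and close together in IFE suprabasal-like cells (1798 and 2041), Atf3 is low in DPC-like cells of both libraries (24.7 and 65.7), and most Fosl2 pairs lie close to each other.

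Among immune classes, myeloid-like cells (132 control and 322 TP cells) had 8 of 9 genes at least 2-fold higher, beside 7.54% of all genes. Fos stood at 1065 CPM in control against 3008 in TP there and Zfp36, which limits cytokine transcripts in macrophages, at 368 and 962. The clusters of this class were not alike either, since Atf3 stood at 149.8 and 1870 CPM in cluster 31, led by Ccl8 and C1qa, and at 907 and 1847 in the cluster led by Cd74 and H2-Aa. Cluster 31 held 54 of the control and 208 of the TP cells of the class. Lymphocyte-like cells were too few in TP (186 control and 36 TP cells) to be compared.

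Endothelial-like cells (118 control and 190 TP cells) had 3 of 9 genes at least 2-fold higher, beside 7.66% of all genes, namely Fos at 1173 and 2773 CPM, Fosb at 173 and 491 and Jund at 459 and 1148, while Jun had a ratio of 1.94. Epidermal keratins differed in the same direction in these cells, with Krt1 at 5.61% in control and 17.1% in TP of its suprabasal level, Krt10 at 4.97% in control and 11.8% in TP, and Krt14 at 2.66% in control and 4.92% in TP of its basal level, and their part was not tested. Melanocyte-like cells (465 control and 160 TP cells) had 2 of 9, beside 5.21%, namely Fos at 409 and 1007 CPM and Atf3 at 96.6 and 233. Egr1 stood at 96.6 and 98.5 CPM. Atf3 was at 9.94% in control and 10.3% in TP of its IFE basal-like level, and Krt14 at 6.25% in control and 3.08% in TP. The part of epidermal RNA in the Atf3 gap was not tested. Fosl2 in melanocyte-like cells was the 1 pair at least 2-fold lower (10.8% of all genes there were), with 43 UMIs in control against 8 in TP, a ratio of 0.222 (0.0903 to 0.479). In smooth muscle-like cells (51 control and 94 TP cells), 0 of 9 genes stood at least 2-fold higher, beside 5.06% of all genes. Fos stood at 1886 CPM in control against 1844 in TP there, a ratio of 0.978 (0.855 to 1.12), an interval that includes equality and leaves out 2-fold in either direction. Its parts differed, with Fos ratios of 1.73 (1.32 to 2.30) in cluster 30.1, led by Myh11 and Ctnna3, and 0.733 (0.627 to 0.860) in cluster 30.2, led by Myh11 and Tagln. Schwann-like cells, the glia of skin nerves, were few and shallow (63 control and 55 TP cells, median 798 and 943 UMIs). Fosb had 4 UMIs in control against 35 in TP in them and Atf3 5 and 34, so that these genes reached 20 UMIs only through TP, and no count over the set is read here (14.5% of the 393 genes counted were 2-fold higher). Fos had 38 UMIs in control against 178 in TP in them, a ratio of 3.48 (2.44 to 5.08).

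**Figure D3:**
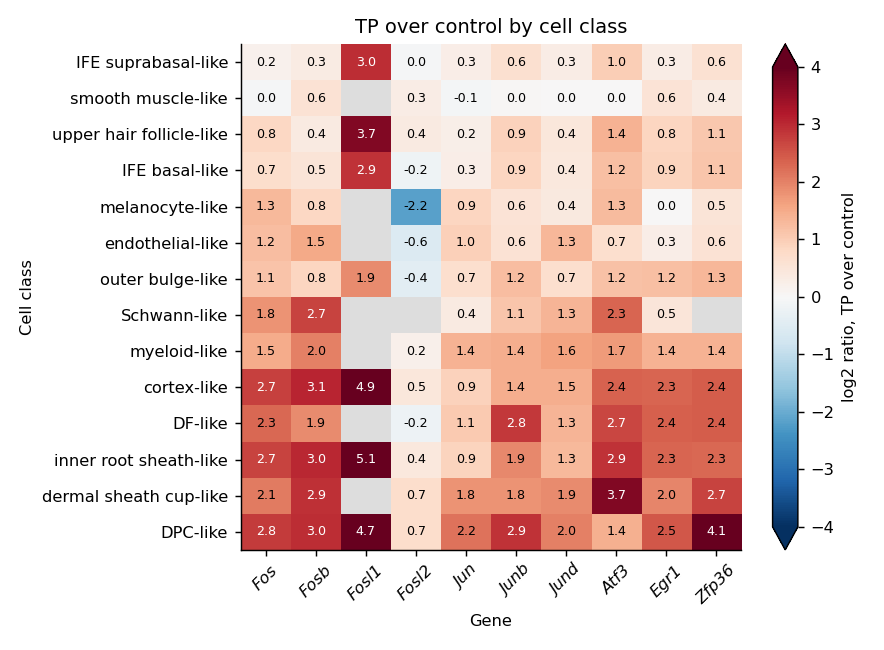
Log2 ratio of TP over control for each of the 10 genes in each of 14 cell classes, red where TP was higher and blue where it was lower, with the color saturated beyond 4 and grey where a gene had fewer than 20 UMIs or none in control. Zfp36 in DPC-like cells, a ratio of 17.6, is among the deepest red, and Fosl2 in melanocyte-like cells, a ratio of 0.222, is the deepest blue.

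The order of the classes therefore differed between the libraries. For Fos in control, smooth muscle-like (1886 CPM), IFE basal-like and IFE suprabasal-like cells had intervals that overlapped from one to the next at the top, and cortex-like cells (157 CPM) were last. In TP, DPC-like cells (3843 CPM) came first, dermal sheath cup-like cells next, and the interval of myeloid-like cells overlapped that of the class after it. At the low end in TP, cortex-like and melanocyte-like cells overlapped. The highest class exceeded the lowest by 11.98 times in control and 3.82 times in TP for Fos. For Egr1 these spans were 6.89 and 17.4 times, with melanocyte-like cells the lowest in both libraries, though in control their interval overlapped that of cortex-like cells. Without melanocyte-like cells the Egr1 spans were 6.56 and 4.2996 times, so the wide span of Egr1 in TP rested on that class, while those of Fos were 11.98 and 3.71 times.

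Atf3 was laid out unlike Fos. IFE basal-like cells had its highest level in both libraries, and DPC-like cells its lowest in TP, at 24.7 and 65.7 CPM. The DPC-like level of Atf3 was 2.54% in control and 2.92% in TP of the IFE basal-like level. Krt14, a basal keratin that papilla cells should lack, stood in DPC-like cells at 2.82% in control and 2.11% in TP of its IFE basal-like level, and Krt10 at 4.48% in control and 4.63% in TP of its suprabasal level. Atf3 in DPC-like cells was thus at the level that free RNA gave for keratins, and its ratio of 2.66 is not read as a difference in expression. Fos in DPC-like cells stood at 30.1% in control and 129% in TP of the IFE basal-like level, and Zfp36 at 14.8% in control and 121% in TP, both above that epidermal background. Krt71, a keratin of the inner root sheath, stood in DPC-like cells at 573 CPM in control against 71.8 in TP. In inner root sheath-like cells it stood at 3610 and 3403 CPM. RNA of root sheath type was thus higher in DPC-like cells of control, and its part in these levels was not tested. In dermal sheath cup-like cells Atf3 stood at 2.42% in control and 13.5% in TP of the IFE basal-like level, with Krt14 at 2.49% in control and 2.20% in TP. Krt1 stood there at 4.51% in control and 6.405% in TP of its suprabasal level and Krt10 at 4.08% in control and 6.25% in TP, and the part of epidermal RNA in the Atf3 gap was not tested.

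Fosl1 was found mainly in the epidermis. IFE basal-like cells held 50.6% in control and 42.1% in TP of its UMIs, and IFE suprabasal-like cells 24.8% in control and 35.5% in TP. Over all kept cells Fosl1 stood at 3.93 CPM in control and 54.2 in TP. The IFE basal-like level was above this in both libraries (28.5 and 212), while the IFE suprabasal-like level (7.25 and 56.6) was near it in TP. The ratio of Fosl1 was 7.46 (6.50 to 8.60) in IFE basal-like and 7.80 (6.42 to 9.56) in IFE suprabasal-like cells, the largest of the set in both classes. With each cell thinned to 1000 UMIs, 0 of 46 control and 0 of 93 TP smooth muscle-like cells had a Fosl1 UMI, and a limit of 3 cells for a count of 0 allows shares of cells with a UMI of up to 6.52% and 3.23%, which says nothing of cells that express the gene without a UMI. DPC-like cells had 1 and 20 UMIs in control and TP, and their level was 0.339% in control and 1.14% in TP of that in IFE basal-like cells, at or below the keratin background. In inner root sheath-like cells Fosl1 had 11 UMIs in control against 204 in TP, while Krt10 there stood at 7.26% in control and 26.2% in TP of its suprabasal level. The part of epidermal RNA in that gap was not tested.

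Fosl2 differed least between the libraries. Its ratio ran from 0.222 in melanocyte-like to 1.62 in dermal sheath cup-like cells among the 13 classes with at least 20 UMIs. It was within 2-fold in 12 of them, with 5 intervals above 1 and 2 below. With each cell thinned to 1000 UMIs, a Fosl2 UMI was found in 4.41% and 4.53% of control and TP cells. Without thinning the shares were 10.4% and 23.6%, so that the deeper library gave the larger share at nearly the same CPM.

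Thinning left out 5355 control and 835 TP cells with fewer than 1000 UMIs. The share of cells with a Fos UMI was then 26.7% (26.2 to 27.2) in control and 61.2% (60.5 to 61.9) in TP, against 37.1% and 81.7% without thinning. The thinned shares were 19.9% and 45.6% for Egr1, 11.8% and 34.9% for Atf3 and 6.50% and 22.0% for Zfp36. In DPC-like cells the share with a Fos UMI was 22.3% (20.9 to 23.8) in control and 71.8% (69.2 to 74.4) in TP, and for Zfp36 it was 2.77% and 30.8%. In IFE suprabasal-like cells it was 72.6% (70.7 to 74.6) in control and 69.1% (67.4 to 70.6) in TP for Fos, lower in TP although the CPM was higher, so no order is read from it. No class here is known to lack Fos, and the lowest share, in cortex-like cells of control (median 3095 UMIs), was 12.02% and 50.5% in control and TP (median 5221 UMIs).

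The genes were often found in the same cells. With each cell at 1000 UMIs, the share of cells with UMIs of at least 3 of the 10 genes was 23.0% in control and 58.6% in TP, and the share with none 28.7% in control and 10.9% in TP. In DPC-like cells the share with at least 3 was 15.5% in control and 69.0% in TP, and in inner root sheath-like cells 12.8% in control and 62.1% in TP. In IFE basal-like cells it was 67.2% in control and 67.1% in TP, while the share with at least 5 was 33.6% in control and 45.5% in TP. The share of cells with at least 3 of the genes was thus larger in TP among papilla cells, while in the basal epidermis it was level at 3 genes and larger in TP at 5.

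**Figure D4:**
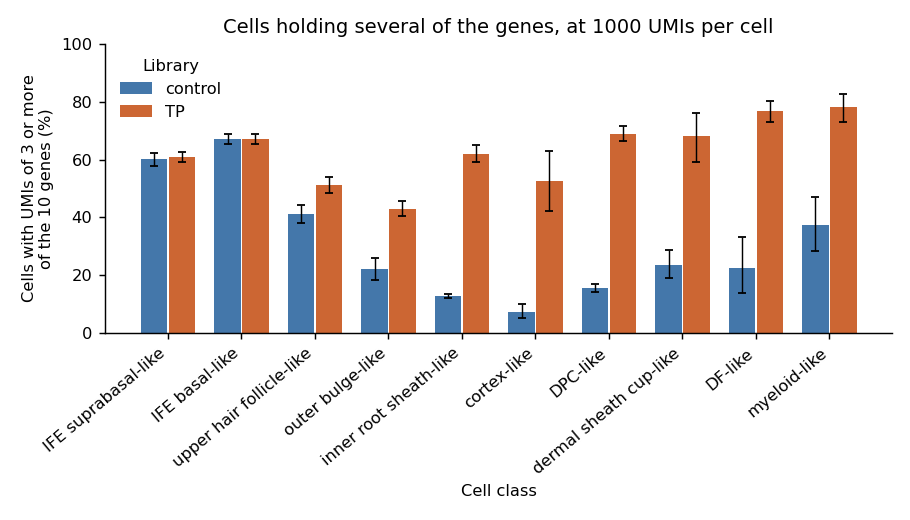
Percent of cells with UMIs of at least 3 of the 10 genes after each cell was thinned to 1000 UMIs, by cell class in the control and TP libraries, with 95% Clopper-Pearson intervals over cells. The shares are level in IFE basal-like cells (67.2% in control and 67.1% in TP) and far apart in DPC-like cells (15.5% in control and 69.0% in TP).

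Within DPC-like cells of TP, Jun was found in 74.6% against 30% of the cells with and without a Fos UMI, and Egr1 in 69.4% against 25.6%. In control DPC-like cells these shares were 51.7% against 22.1% for Jun and 43.9% against 10.2% for Egr1. Atf3 had shares there of 6.23% against 4.71% in TP and 2.14% against 2.09% in control. In IFE basal-like cells Atf3 went with Fos, at 67.8% against 22.8% in TP and 52.6% against 23.7% in control. These shares are over cells of 1 library each and describe those libraries.

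Unnamed clusters held both patterns. In cluster 3, led by Selenbp1 and Kcnh1 and with Krt35, Fos stood at 122 CPM in control against 1200 in TP, and in cluster 17, led by Soat1 and Gpnmb and with Krt75, at 103 and 1018. In cluster 16, which carries Shh and Edar, Fos stood at 97.7 and 628 CPM and Egr1 at 96.3 and 641. The dividing cells of cluster 14, led by histone genes, had Fos at 153 and 1063 CPM, and those of cluster 7, led by Knl1 and Aspm, at 193 and 925. Cluster 8, led by Ghr and with Il34 (3.898% of the control and 7.16% of the TP cells), and cluster 24, led by Skint5 and Skint6 (0.681% of the control and 1.77% of the TP cells), scored highest for suprabasal markers but had none of them among their leading genes. In cluster 8 Fos stood at 1709 CPM in control against 1698 in TP and Jun at 1255 CPM in control against 938 in TP, and the summed ratio of the set was 1.06. In cluster 24 Fos stood at 1325 and 1346 CPM and the summed ratio was 1.03. Over the other 9 unnamed clusters with at least 50 cells in each library, the summed ratio ran from 2.34 in cluster 5, led by Ntn1 and Tmtc1, to 4.21 in cluster 3.

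Depth, mitochondrial share and heat shock genes were measured beside these results, and their part in them was not tested. In cells of 2000 to 4000 UMIs, the summed level of the set was higher in TP by a ratio of 2.66 over all cells, 4.24 in DPC-like, 3.63 in inner root sheath-like and 1.14 in IFE basal-like cells. Over 5 ranges of depth the ratio in DPC-like cells ran from 3.23 to 6.46. In IFE basal-like cells of 1000 to 2000 UMIs the ratio was 0.836, on the other side of equality. By mitochondrial share, the ratio in IFE suprabasal-like cells turned from 1.42 at under 2.5% to 0.592 at 7.5 to 10%. In DPC-like cells it was 5.69 at under 2.5% and 2.13 at 7.5 to 10%, the last from 64 control and 18 TP cells.

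Heat shock genes respond to stress and to handling. Of 12 listed, 2 stood at least 2-fold higher in TP over all cells and 0 were 2-fold lower, beside the same 8.36% and 11% of all genes, and the median ratio was 0.987. The small chaperone Hspb1 stood at 816 CPM in control against 2045 in TP and the cochaperone Dnajb1 at 102 and 273. Hspa1a, the inducible HSP70, stood at 228 CPM in control against 172 in TP, while the mitochondrial chaperonins Hspe1 and Hspd1 had ratios of 0.777 and 0.718, and Hspa5, of the endoplasmic reticulum, one of 1.83. Summed over the list, the ratio was 1.252 in DPC-like and 1.40 in IFE suprabasal-like cells, beside 5.83 and 1.29 for the set.

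Among 45 other immediate-early genes, 26 stood at least 2-fold higher in TP over all cells and 0 were 2-fold lower, beside 8.36% and 11% of all genes, and the median ratio was 2.29. Arc, a synaptic immediate-early gene, stood at 6.82 and 52.1 CPM, Hbegf, a ligand of the EGF receptor, at 15.6 and 118, and Ptgs2, the inducible cyclooxygenase, at 1.13 and 11.3. At the other end, Plk2, a stress-responsive kinase, stood at 59.0 and 42.3 CPM, Id2, an inhibitor of helix-loop-helix factors, at 104 and 89.5, and Trib1, a pseudokinase, at 41.1 and 37.6. In DPC-like cells 23 of 41 were at least 2-fold higher, beside 3.84% of all genes, in IFE basal-like cells 17 of 42, beside 1.56%, and in melanocyte-like cells 3 of 28, beside 5.21%.

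Of 18 AP-1 partners and dimer relatives, 2 were at least 2-fold higher and 0 2-fold lower, beside 8.36% and 11% of all genes, and the median ratio was 0.940. The higher ones were Batf, a partner of JUN in immune cells, with 38 UMIs in control against 178 in TP, and Maff, a small MAF protein, at 2.39 and 8.38 CPM. Jdp2, a repressor that pairs with JUN, stood at 4.62 and 8.24 CPM, Creb1, the cAMP response factor, at 106 and 78.9, its relative Atf1 at 58.9 and 39.98, and Mafg, another small MAF protein, at 69.4 and 51.2. Among 16 upstream kinases and SRF cofactors, 0 were 2-fold higher and 0 lower, beside those same shares of all genes, with a median ratio of 0.803. The ERK gene Mapk3 stood at 35.2 and 52.9 CPM, Map2k4, a kinase of JNK, at 199 and 230.0, and Srf at 6.88 and 7.74, while Map3k1 stood at 206 and 129, Elk3, an SRF cofactor, at 15.6 and 11.2 and the p38 gene Mapk14 at 97.8 and 71.9. On the log2 scale the medians of the AP-1 partners, the upstream kinases and the heat shock genes were -0.09, -0.32 and -0.02, beside -0.24 for all genes, and the TMM factor, another scaling, adds 0.26 to each and takes the first and the last above 0. Of the decay factors related to Zfp36, Zfp36l1 had a ratio of 1.42, Zfp36l2 of 1.49 and the endonuclease gene Zc3h12a of 2.15.

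**Figure D5:**
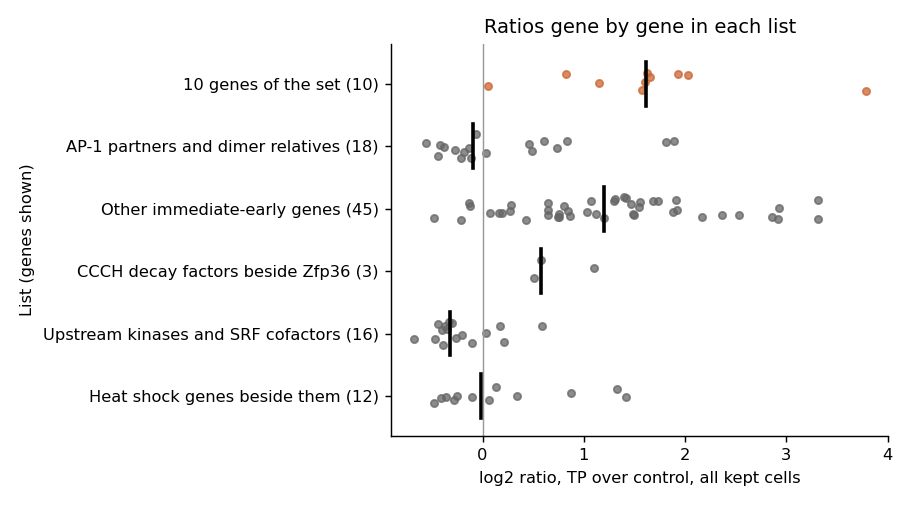
Log2 ratio of TP over control over all kept cells for each gene of the set and of 5 lists of related genes, with a bar at each median. The other immediate-early genes lie mostly above 0 (median ratio 2.29), while AP-1 partners (0.940), upstream kinases (0.803) and heat shock genes (0.987) center near or below it. The median over all genes tested lies at -0.24.

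Likeness was measured as Pearson's r of log2(CPM + 1) over the 28 points that 14 classes in each library give. In the set, Fos and Fosb were most alike (r = 0.95), then Junb and Zfp36 (r = 0.93), while Fos and Fosl2 had r = 0.05. Among 10676 genes outside the set, the 3 nearest to Fos were Nfkbiz (0.81), Dusp1 (0.81) and Btg2 (0.81). Those 3 were also the nearest to Fosb, with Nfkbiz first (0.86). Nfkbiz encodes a nuclear relative of the IκB proteins, and Dusp1 a phosphatase of MAP kinases. Junb was nearest to Btg2 (0.85), Ier2 and Nfkbiz, Jun to Klf6 (0.82), Dusp1 and Nfkbiz, and Jund to Nfkbiz (0.81), Dusp1 and Herpud1. Zfp36 was nearest to Klf6 (0.85), Nfkbiz and Dusp1, which were nearly level, and Atf3 to Klf6 (0.89), Tagln2 and Il13ra1. Egr1 was nearest to Ier2 (0.92), with Btg2 (0.80) and Map1lc3a (0.71) behind. Fosl1 had Ifrd1 (0.84), Arc and Cyp3a13 as its nearest genes, and Fosl2 had Rnf139 (0.70), Foxn2 and Spop. The points share libraries and depth, so these values are descriptions.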

How the data were processed

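Single cells of 1 control and 1 TP library were measured by droplet 3′ sequencing. The authors deposited raw UMI counts per gene and barcode, made with Cell Ranger 8.0.1 on mm10 per the labels. Here, barcodes with 200 to 8000 genes and at most 10% mitochondrial UMIs were kept, and simulated doublets were used to remove the highest 7.5% of each library. Cells were clustered with Seurat 5.3.0 (2000 genes, 30 components, resolution 1) in R 4.3.3. Clusters were named from marker lists with a score threshold of 1.25 chosen after the clusters were seen, and 2 mixed clusters were split. Clusters below it, or with none of the markers among their 20 leading genes, stayed unnamed. UMIs were summed per class and library. Intervals are exact (Poisson for levels, conditional binomial for ratios, Clopper-Pearson for shares), and their code was checked on simulated counts. With 1 library per condition there is no test. The TMM alternative used edgeR 4.0.16. Motifs were searched in RefSeq promoters of GRCm38.p6. Text names all 10 genes, the 3 highest and 3 lowest ratios of each list with at least 200 UMIs, and the 3 most alike genes for each. The genes and the lists were chosen with earlier results of these data known. No per-sample column was left unused.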

Additional observations from a re-analysis of the deposited data

Results flagged for a closer look

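Some named classes and unnamed clusters had counting intervals on opposite sides of equality. Fosl2 in melanocyte-like cells had a ratio of TP over control of 0.222, from 43 control and 8 TP UMIs, and in outer bulge-like cells one of 0.747, whereas in DPC-like cells it was 1.61. Jun had a ratio of 0.747 in cluster 8, led by Ghr, and 0.735 in cluster 24, led by Skint5, whereas in DPC-like cells it was 4.53. Junb had a ratio of 0.837 in cluster 24 and 7.47 in DPC-like cells. Within the smooth muscle-like class, Fos had a ratio of 1.73 in cluster 30.1 and 0.733 in cluster 30.2. All these were picked out because the counting intervals of the classes or clusters lie on opposite sides of 1. None of these differences was tested, since each condition has 1 library.

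Barcodes left out of the comparisons carried the set as well. In those over 10% mitochondrial UMIs (3465 control and 5871 TP), the summed level was 1781 CPM in control against 3273 in TP, a ratio of 1.84. In those called doublets (3168 and 1503), it was 3066 and 6809 CPM, a ratio of 2.22.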

How the results depend on the processing

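The median log2 ratio of the set over all kept cells, 1.62, stayed above 0 under every alternative tried, and 5 to 9 of the 10 genes stood at least 2-fold higher. The set was chosen by such ratios, so this supports nothing by itself. In the main setting the median of all genes was -0.24, and 8.36% of them stood at least 2-fold higher. Such values of all genes are not given for the alternatives, so the counts of genes and pairs describe the lists only. The median was 1.87 with the TMM factor, 1.59 with doublets kept, 1.57 over all deposited barcodes, 1.55 at a mitochondrial share of at most 5% and 1.57 with a pseudocount of 0.1 per 10000. It was 1.46 with the cluster shares of control and 0.98 with those of TP in both libraries, where 5 genes were at least 2-fold higher. Averaging ln(counts per 10000 + 1) over cells gave 1.39, the same at 1000 UMIs per cell 1.37, and leaving out unnamed clusters 1.29. Without the interfollicular epidermis, an alternative added after seeing the data, it was 2.41. Of the other immediate-early genes, 26 were at least 2-fold higher, and 16 with the pseudocount. Of the pairs of gene and class, 72 of 132 were 2-fold higher (54.5%), and the share ran from 66 of 132 (50%) with averaged ln values to 81 of 132 (61.4%) with the TMM factor, with 51 of 86 (59.3%) in cells of 2000 to 5000 UMIs. The 1 pair 2-fold lower became 0 in cells of 2000 to 5000 UMIs and 2 without a filter on low counts. The causes of these changes were not tested. The pairs with doublets kept were not run. No paired analysis was possible because each condition has 1 library, and for the same reason no library could be left out.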
